A study of Mus musculus with 8 samples.

Results

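Mapt and Fez1 are a pair of genes best known from neurons, and their transcripts were measured here in whole mouse EDL (extensor digitorum longus), a fast muscle that lifts the toes. All probes carrying either gene symbol in the platform annotation were taken, which gave 4 probes, 2 per gene, of the 9232 on the arrays, or 2 of 7053 named genes. The arrays compared 4 samples of mice labelled sod-/-, which lack Sod1, the superoxide dismutase of the cytosol, with 4 samples of wild-type mice. All mice were 7 months old. No further allele, strain or treatment is given in the labels, which do not say whether each sample is a different animal. The spread and the p-values below describe these samples. Both genes were chosen because they stood higher in the knockout in this very comparison, so their differences are a description and carry no test.

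Tau, the product of Mapt, binds along microtubules, the tubulin filaments that serve as tracks in axons, and stabilises them. Fez1 encodes an adaptor that links cargo to kinesin-1, a motor that walks along those tracks, and its worm and fly relatives act in axon growth and transport. Skeletal muscle fibres have their own microtubule network, and a muscle sample also contains nerve branches, Schwann cells, vessels and connective tissue. In such a sample, more cells of a type and more RNA per cell cannot be told apart.

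Values are log2 intensities as deposited, with an array median of 6.93 and a highest value of 14.19 on every array. A probe was tested where it lay above that median on at least 4 of the 8 arrays, whatever their genotype, which left 4698 probes. In the limma fit across all of them, 0 (0%) passed an adjusted p of 0.05 (Benjamini-Hochberg), and 9.34% had an unadjusted p under 0.05. Defining markers of skeletal muscle were bright on all arrays: Acta1, the skeletal actin, lay between 13.94 and 13.98 in knockout arrays and between 13.81 and 13.99 in wild-type arrays. Knockout replicate 2 stood apart from the other knockouts in several, not all, of the genes that muscle switches on after loss of its nerve, so its value is given separately where it matters.

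For Fez1 the genomic starts annotated in RefSeq are shown, since the probes do not tell which of them is used. Each line is the RefSeq window of 300 bases that ends shortly after a start, on GRCm38.p6, plus strand, written 5′ to 3′. Capitals mark the E-box CANNTG, the core letters bound by myogenic and other helix-loop-helix factors, searched on both strands, where it reads alike.
Fez1 start 1, chr9:36821641-36821940: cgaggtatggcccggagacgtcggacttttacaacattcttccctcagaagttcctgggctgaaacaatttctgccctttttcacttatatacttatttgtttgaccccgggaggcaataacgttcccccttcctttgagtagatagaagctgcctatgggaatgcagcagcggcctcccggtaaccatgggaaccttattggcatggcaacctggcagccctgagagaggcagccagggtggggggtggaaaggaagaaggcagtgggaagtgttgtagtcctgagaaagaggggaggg
Fez1 start 2, chr9:36832490-36832789: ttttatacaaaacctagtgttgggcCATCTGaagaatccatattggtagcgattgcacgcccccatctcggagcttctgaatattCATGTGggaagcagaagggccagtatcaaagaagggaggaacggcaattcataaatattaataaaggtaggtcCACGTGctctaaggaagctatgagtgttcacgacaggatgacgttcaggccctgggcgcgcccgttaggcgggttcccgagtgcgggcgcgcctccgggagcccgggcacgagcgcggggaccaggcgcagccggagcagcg
Fez1 start 3, chr9:36833324-36833623: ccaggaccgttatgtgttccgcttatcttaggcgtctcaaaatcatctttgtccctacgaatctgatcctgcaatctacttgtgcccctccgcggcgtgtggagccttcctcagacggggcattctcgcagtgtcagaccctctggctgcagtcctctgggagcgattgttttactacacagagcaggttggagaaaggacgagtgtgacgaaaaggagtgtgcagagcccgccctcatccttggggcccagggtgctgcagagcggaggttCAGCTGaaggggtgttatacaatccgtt
The E-box occurred 0, 3 and 1 times in the windows of starts 1, 2 and 3. Of all 32851 RefSeq windows of 300 bases, 72.3% hold at least 1, so its presence is the usual case. The windows held 8, 23 and 15 CpG dinucleotides.

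Mapt stood higher in the knockout on both of its probes. On probe 360706 the log2 intensity was 9.43, 9.39, 9.07 and 9.22 in knockout replicates 1 to 4, against 8.22, 8.18, 8.73 and 8.42 in wild-type replicates 1 to 4. The lowest knockout array, replicate 3, was 0.33 above the highest wild-type array, also a replicate 3, and the knockout arrays lay closer together than the wild-type ones. The means were 9.28 ± 0.17 in knockout arrays and 8.39 ± 0.25 in the wild type (SD, n = 4 each), a difference of 0.89 with a standard error of 0.15, or 1.85-fold. On probe 1230706 the values were 8.39, 7.94, 7.82 and 7.95 in the knockout, against 7.21, 7.20, 7.52 and 7.73 in the wild type. Here the genotypes came within 0.09 of each other, between knockout replicate 3 and wild-type replicate 4. The difference was 0.61 with a standard error of 0.18, or 1.52-fold.

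Fez1 differed by more than Mapt on both of its probes, with a wider spread among the knockouts. On probe 2630725 the log2 intensity was 8.54, 8.06, 8.75 and 9.26 in knockout replicates 1 to 4, against 7.59, 7.64, 7.04 and 7.23 in wild-type replicates 1 to 4. Knockout replicate 4 was highest and replicate 2 lowest, a span of 1.20 against 0.60 in the wild type, and the genotypes were 0.43 apart. The means were 8.65 ± 0.50 in knockout arrays and 7.37 ± 0.29 in the wild type (SD, n = 4 each), a difference of 1.28 with a standard error of 0.29, or 2.43-fold. On probe 4810324 the values were 8.86, 8.33, 9.02 and 9.27 in the knockout, against 7.86, 7.99, 7.35 and 7.70 in the wild type. The 8 arrays kept the same order there, with a gap of 0.35 and a difference of 1.14 (standard error 0.24, 2.21-fold).

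**Figure D1:**
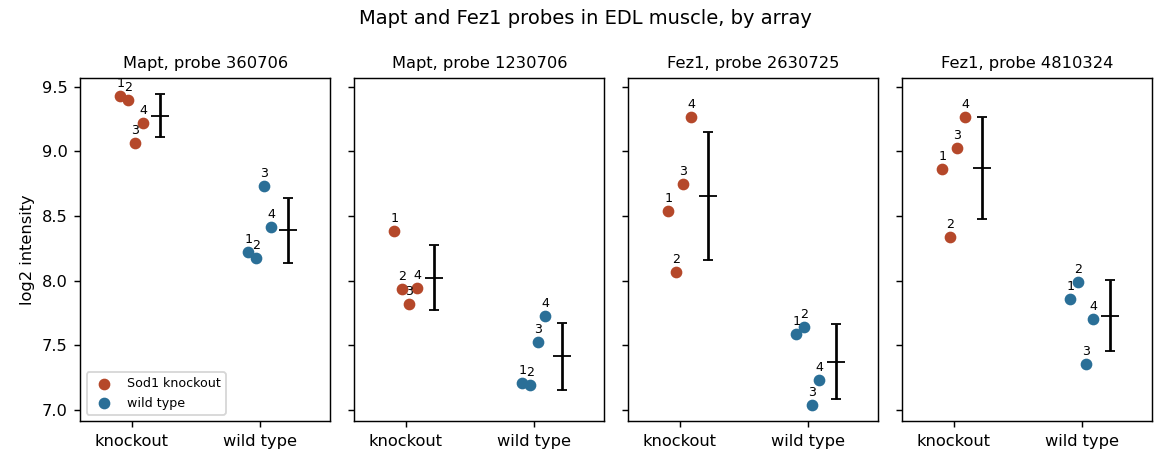
Log2 intensity of each Mapt and Fez1 probe in the 4 Sod1 knockout arrays (red, left) and the 4 wild-type arrays (blue, right), with replicate numbers beside the points and the mean ± SD as black bars. On all 4 probes every knockout point lies above every wild-type point, by 0.09 on Mapt probe 1230706 and by 0.43 on Fez1 probe 2630725.

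On all 4 probes the knockout arrays lay above the wild-type arrays without overlap, as did 1.87% of all tested probes. Since the genes were chosen from this comparison, nothing is read from that count. Ordered by difference among the 4698 tested probes from the highest down, the Fez1 probes ranked 26 and 37 and the Mapt probes 91 and 200. All 4 probes lay above the array median on all 4 knockout and all 4 wild-type arrays, so none passed the filter through the knockout alone, and all were far from the ceiling of the values.

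The probes of a gene followed each other across arrays, and the genes did not follow each other within a genotype. Between the Fez1 probes Pearson's r over the 8 arrays was 0.99, and 0.97 after each genotype's mean was subtracted. Between the Mapt probes it was 0.90, and 0.67 after subtraction. These arrays share their RNA and labelling reaction between probes, so r describes the 8 arrays and has no p. Averaged over its probes, Mapt stood at 8.91, 8.67, 8.44 and 8.58 in knockout replicates 1 to 4, against 7.72, 7.69, 8.13 and 8.07 in wild-type replicates 1 to 4. The average of Fez1 was 8.70, 8.20, 8.89 and 9.27 in the knockout, against 7.72, 7.81, 7.20 and 7.47 in the wild type. In the wild type the array highest in Mapt, replicate 3, was lowest in Fez1, and the array lowest in Mapt, replicate 2, was highest in Fez1. After subtraction of the genotype means r between the genes was -0.56, a weak relation over 8 arrays.

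**Figure D2:**
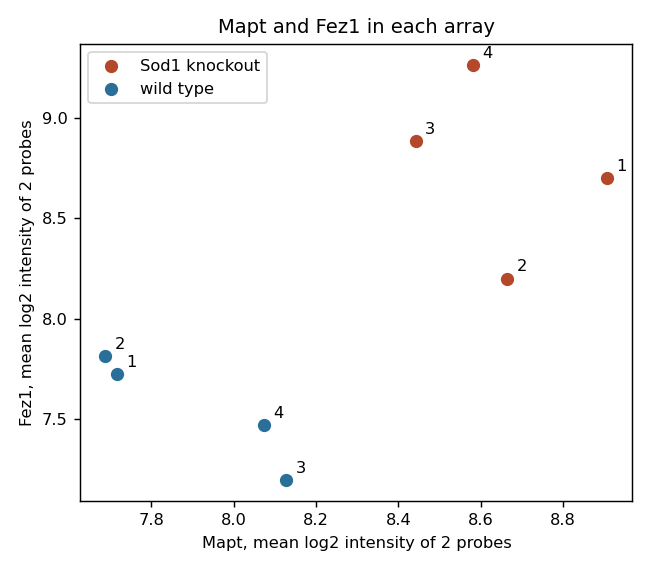
Each point is an array, with the mean log2 intensity of the 2 Mapt probes on the x axis and of the 2 Fez1 probes on the y axis, Sod1 knockout in red and wild type in blue, numbered by replicate. The genotypes are separated on both axes, by 0.31 for Mapt and 0.39 for Fez1, whereas within the wild type the array highest in Mapt is lowest in Fez1.

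The tracks that tau binds were represented by 17 probes whose symbol starts with Tub, for 15 genes. Besides alpha and beta tubulins these include gamma, delta and epsilon tubulins and the gamma-tubulin complex proteins Tubgcp2 and Tubgcp4. Of the 7 probes tested, 2 had a higher and 5 a lower mean in the knockout, and 0 passed the adjusted threshold in limma, with 1 at an unadjusted p under 0.05. The median difference was -0.09, beside -0.03 for all tested probes.

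Tubb6, a beta tubulin known to rise in regenerating muscle, was that probe. Its log2 intensity was 10.92, 9.87, 10.46 and 10.18 in the knockout, against 8.96, 10.09, 8.82 and 9.74 in the wild type. Wild-type replicate 2 lay above the lowest knockout, so the genotypes overlapped, with a difference of 0.95 (limma standard error 0.32, limma adjusted p 0.465). The other tested alpha and beta tubulins differed little in either direction. Tubb4b, a widely expressed beta tubulin, differed by -0.34 (adjusted p 0.585), Tubb5, another, by -0.25 (adjusted p 0.662) and Tuba8, an alpha tubulin found in muscle, by -0.12 (adjusted p 0.854). Tuba4a differed by 0.18 (adjusted p 0.931), and without wild-type replicate 2, its lowest array at 7.05, the difference was -0.35. Tubg1, the gamma tubulin that nucleates microtubules, differed by -0.09 (adjusted p 0.884).

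Tubb3, the beta tubulin characteristic of neurons, lay far below the array median on every array. It stood at 4.45, 4.35, 4.47 and 4.79 in knockout arrays and at 4.41, 4.46, 4.25 and 4.60 in the wild type, with overlapping genotypes. Tubg2, a second gamma tubulin, was also below the filter. It stood at 6.39, 5.19, 6.23 and 6.23 in the knockout, against 3.76, 5.35, 5.09 and 5.13 in the wild type, and knockout replicate 2 lay inside the wild-type range. The 10 Tub probes below the filter differed by -0.25, in Tubd1, to 1.18, in Tubg2.

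Motors and their partners were represented by 15 probes whose symbol starts with Kif, for 10 genes. Of the 6 tested probes, 4 had a higher and 2 a lower mean in the knockout, with a median difference of 0.01. Again 0 passed in limma and 1 had an unadjusted p under 0.05. That probe was Kifbp, a protein that binds kinesins and holds them off the microtubule, and not itself a motor. Its log2 intensity was 7.11, 7.20, 7.04 and 7.20 in the knockout, against 7.99, 8.04, 7.64 and 7.02 in the wild type. The knockout arrays lay close together (SD 0.08), wild-type replicate 4 lay below them all, and the difference was -0.53 (limma standard error 0.22, adjusted p 0.518).

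The motors themselves had 4 tested probes, for 2 genes, and showed no difference that this number of arrays could detect. No probe carried the symbol Kif5a, Kif5b or Kif5c, the motor chains of kinesin-1, so the motor that FEZ1 links to cargo was not measured. The 3 tested probes of Kif1b, which carries mitochondria and synaptic vesicle precursors, differed by -0.24, 0.04 and 0.002 (adjusted p 0.757, 0.972 and 0.999). Kif3c, a kinesin-2 motor, differed by 0.06 (adjusted p 0.954), and Kifap3, the cargo-binding subunit of kinesin-2, by 0.02 (adjusted p 0.98). The signs of the differences of 0.002 to 0.06 turned when single arrays were left out, and the -0.24 of Kif1b became -0.038 without wild-type replicate 2. The 9 Kif probes below the filter differed by -0.25, on a second Kif3c probe, to 0.51, in Kif12.

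**Figure D3:**
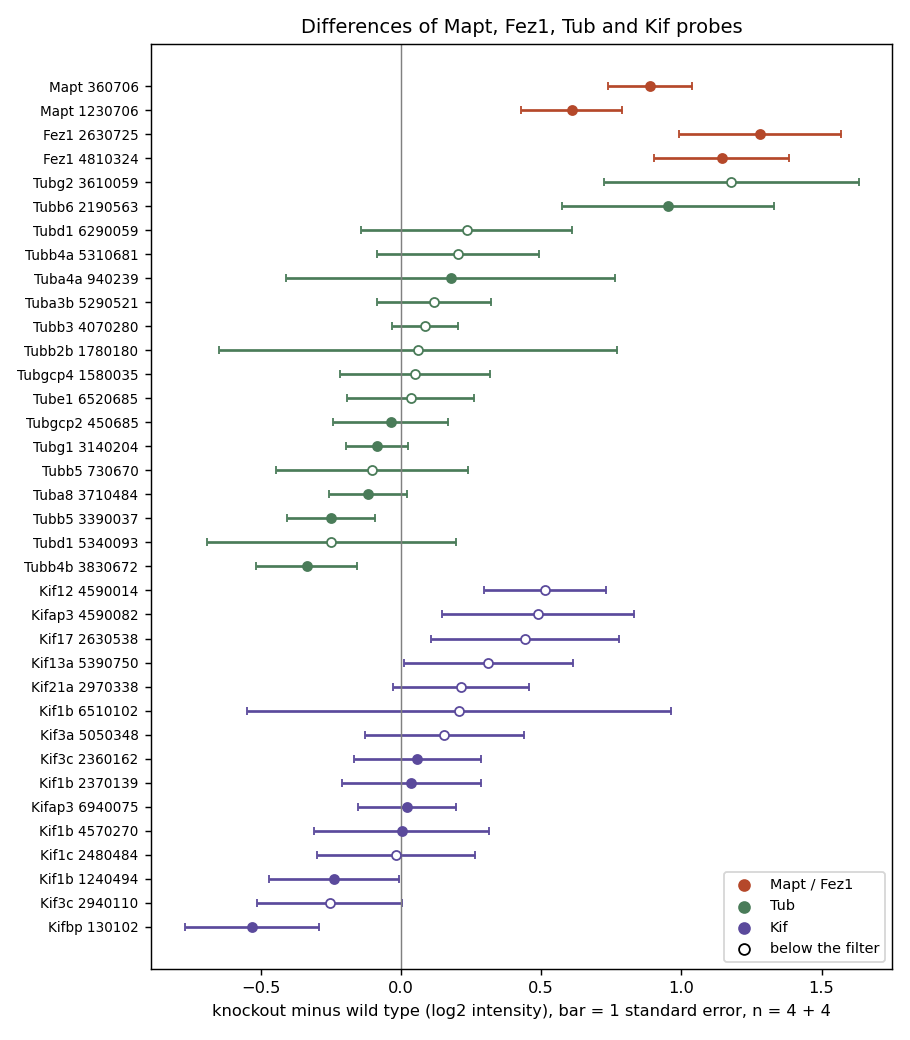
Difference in log2 intensity, knockout minus wild type, for each Mapt, Fez1, Tub and Kif probe, with bars of 1 standard error from the 4 arrays of each genotype; open symbols mark probes below the filter, which were not tested. Mapt and Fez1 lie at 0.61 to 1.28, Tubb6 at 0.95 and Tubg2 at 1.18, while the other Tub and Kif probes spread on both sides of 0.

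Relatives of tau and other proteins that set microtubule stability had 13 tested probes, 9 higher and 4 lower in the knockout, with 0 past the threshold and a median difference of 0.04. Spast, which severs microtubules, had the smallest p, with 0.14, 0.14 and 0.10 on its tested probes (adjusted p 0.82, 0.855 and 0.911). Its probe 460603, below the array median on every array, differed by 0.57 without overlap. Map1s, also below the filter, went the other way without overlap, with a difference of -0.25. Ckap5, a microtubule polymerase, had the highest difference among tested probes, 0.28 (adjusted p 0.926), but -0.04 on its other probe (adjusted p 0.968). Map4, the tau relative of non-neuronal cells, differed by 0.04 (adjusted p 0.962). Map1b, the microtubule protein of growing axons, was below the filter because it lay above the array median on 3 arrays, and it is described here after its values were seen. It stood at 8.36, 6.17, 7.63 and 8.57 in the knockout, against 5.49, 6.21, 5.58 and 5.33 in the wild type. Knockout replicates 1, 3 and 4 were high, and replicate 2 lay just below wild-type replicate 2. Tested without a filter, Map1b differed by 2.03 (limma adjusted p 0.251).

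Enzymes that phosphorylate or dephosphorylate tau had 13 tested probes, 7 higher and 6 lower, 0 past the threshold and 2 at an unadjusted p under 0.05. Both were lower in the knockout. Gsk3b, a main tau kinase, stood at 7.71, 8.19, 7.92 and 8.30 in the knockout, against 8.24, 8.61, 8.95 and 8.28 in the wild type, a difference of -0.50 (adjusted p 0.518) with overlapping genotypes. Ppp2cb, a catalytic subunit of the tau phosphatase PP2A, differed by -0.45 (adjusted p 0.51). The other catalytic subunit, Ppp2ca, differed by 0.12 (adjusted p 0.867). Cdk5, a listed enzyme below the filter, was lower in the knockout by 0.81 without overlap, with a gap of 0.04.

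Known partners of FEZ1 and its paralogue had 8 tested probes, 4 in each direction, with 0 past the threshold and 0 at an unadjusted p under 0.05. Fez2, the paralogue, differed by 0.29 (adjusted p 0.843), with overlapping genotypes. Klc1, a light chain of kinesin-1, differed by 0.42 (adjusted p 0.586) on its tested probe. Its 2 probes below the filter differed by 0.21 and 0.50, and on the last of these the genotypes did not overlap. Ulk1, an autophagy kinase whose worm and fly relatives act on the FEZ1 homologue, differed by -0.78 (adjusted p 0.633) with all arrays, against -0.44 when wild-type replicate 3 was left out. Prkcz, a protein kinase C that binds FEZ1, was below the filter and stood at 7.42, 6.07, 6.85 and 7.03 in the knockout, against 5.56, 6.13, 5.78 and 5.39 in the wild type. It was named after its values were seen, and in it too knockout replicate 2 lay inside the wild-type range.

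Dynein and dynactin, the motor complex that runs the other way along the tracks, had 18 tested probes, 10 higher and 8 lower, with 0 past the threshold. Dynll2, a light chain of dynein and of myosin V, stood at 7.11, 7.31, 8.25 and 7.88 in the knockout, against 6.70, 5.08, 6.88 and 6.24 in the wild type, a difference of 1.42. It lay above the array median on the 4 knockout arrays and on 0 wild-type arrays, so it passed the filter through the knockout alone and its lack of overlap is not read as a result. Dctn1, the large dynactin subunit that grips the microtubule, differed by 0.39 (adjusted p 0.51), also without overlap but with a gap of only 0.005. Its second probe, below the filter, had overlapping genotypes and differed by 0.53. The median difference over the list was 0.08.

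Markers of nerve were set beside Mapt and Fez1. Of 24 axon and neuron markers listed, 5 were on the arrays, and 1 of these passed the filter: Vamp2, a vesicle fusion protein also found outside neurons, which differed by -0.18 (adjusted p 0.818). Tubb3 and Elavl4, an RNA-binding protein of neurons, lay below the array median on every array. Uchl1, a ubiquitin hydrolase abundant in axons, was below the filter and was chosen after its values were seen. It stood at 8.64, 4.94, 8.87 and 8.94 in the knockout, against 4.59, 6.53, 5.01 and 4.34 in the wild type, so knockout replicate 2 was low while the other knockouts were high. The mean over the 5 markers, relative to the wild-type mean, ran from -0.19 to 0.93 in knockout arrays and from -0.16 to 0.10 in the wild type. That mean rests mostly on Uchl1, which differed by 2.73. Of the others, Vamp1 differed by 0.50, Tubb3 by 0.08, Vamp2 by -0.18 and Elavl4 by -0.36.

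Of 17 Schwann cell markers 4 were on the arrays, and their mean ran from 0.08 to 0.70 in knockout arrays and from -0.14 to 0.14 in the wild type. Cnp and Mbp, both of myelinating cells, lay below the array median on every array. Pmp22, a myelin protein also made by other cells and the 1 tested marker, was lower in the knockout by 0.86 (adjusted p 0.53). Ncam1, an adhesion molecule of Schwann cells that denervated muscle fibres also make, stood at 9.32, 5.95, 8.71 and 9.03 in the knockout, against 5.80, 6.65, 5.80 and 5.35 in the wild type. It was the only Schwann cell marker with a higher knockout mean (difference 2.35), while Cnp differed by -0.03 and Mbp by -0.08. Among other cell markers, Cd74, an antigen presentation protein, led the endothelial and macrophage list by p, with a difference of 1.15 (adjusted p 0.465; 0.75 without knockout replicate 3). Of the 4 tested probes of that list it was the 1 with a higher knockout mean, 3 were lower, and the median difference was -0.27. The 3 lower ones were endothelial: Vwf (-0.49), Pecam1 (-0.28) and Cdh5 (-0.25). Below the filter, the macrophage markers Lyz2 and Adgre1 differed by 0.36 and 0.16, with overlap, and the endothelial Tek by -0.50. Dcn, a matrix proteoglycan, led the satellite cell and fibroblast list with -0.24 (adjusted p 0.643). Myl1, a fast myosin light chain, led the muscle list with 0.41 (adjusted p 0.51). The part of nerve or Schwann cell content in the Mapt and Fez1 differences was not tested.

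In knockout replicate 2, Mapt and Fez1 stayed above the wild-type range while several of the probes above did not. Since both genes were chosen for standing higher in the knockout, their place in that array is not read as a result. Genes that respond to loss of the nerve had a mean, over 7 tested probes and relative to the wild-type mean, of 2.19, 0.17, 1.46 and 1.83 in knockout replicates 1 to 4, against -0.01, -0.04, -0.41 and 0.47 in wild-type replicates 1 to 4. Chrna1, the acetylcholine receptor subunit of the motor end plate, was 8.98 on probe 5220292 in knockout replicate 2, below all wild-type values of 9.24 to 9.43. The list was mixed in that array. Gadd45a, a stress-response gene, was 8.95, also below the wild-type range, and Chrnb1, another receptor subunit, was 8.11, inside it. Ankrd1, the muscle ankyrin repeat protein with the smallest p of the list, went the other way and, like Mapt and Fez1, stayed above every wild-type array. It stood at 12.16, 12.21, 10.05 and 11.75 in the knockout, against 9.67, 8.76, 6.25 and 9.57 in the wild type, with replicate 2 highest (difference 2.98, adjusted p 0.418). Rapsn, which clusters the receptor, was 9.05 there on its tested probe, also the highest of all arrays. In the same knockout array Mapt was 9.39 on probe 360706, near the top of the knockout range. On probe 1230706 it was 7.94, near knockout replicates 3 and 4 at 7.82 and 7.95 and below replicate 1 at 8.39. Fez1 was lowest of the knockouts on both probes and yet above every wild-type array. Without knockout replicate 2 Mapt differed by 0.85 and 0.64 and Fez1 by 1.48 and 1.32.

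**Figure D4:**
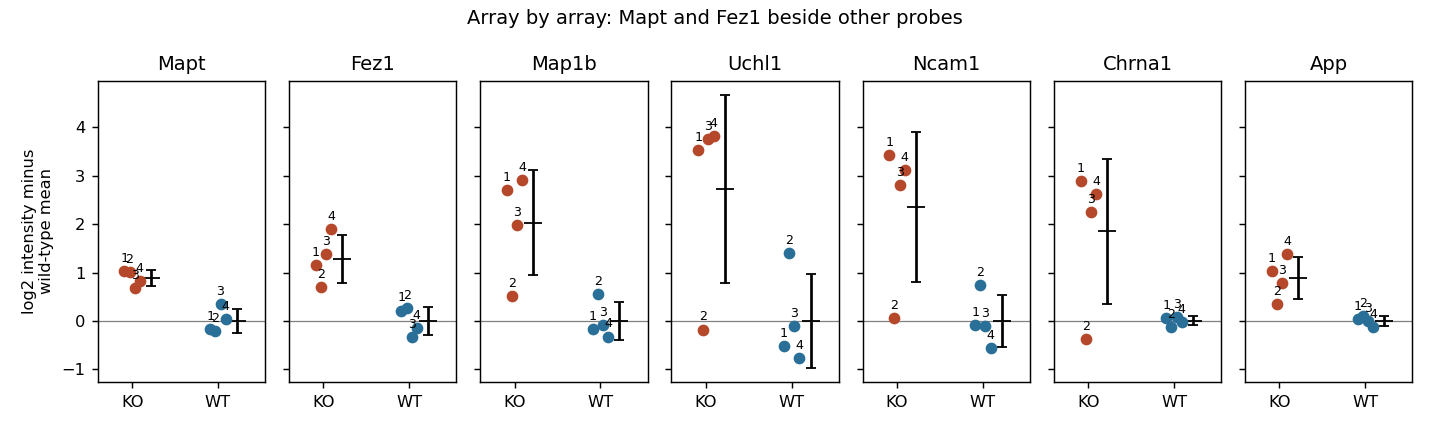
Log2 intensity minus the wild-type mean for single probes of Mapt (360706), Fez1 (2630725), Map1b, Uchl1, Ncam1, Chrna1 and App, in knockout arrays (KO, red, left) and wild-type arrays (WT, blue, right), numbered by replicate, with the mean ± SD in black. In Mapt, Fez1 and App all 4 knockouts lie above all wild types, whereas in the other 4 genes knockout replicate 2 lies inside or below the wild-type range. Mapt and Fez1 were chosen from this comparison and App for its likeness to Fez1, so nothing is read from that contrast.

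The probes whose pattern was most like each gene were named by Pearson's r over the 8 arrays, among tested probes with a gene name. This r includes the gap between genotypes, so a gene chosen for that gap resembles others that share it. For Fez1 these were Timm44, a mitochondrial import protein, with 0.96, App, the amyloid precursor protein, with 0.95, Nhlrc2 with 0.94, Scp2, a lipid carrier, with 0.94, and Dtna, a dystrophin partner, with 0.93. App stood at 9.27, 8.58, 9.01 and 9.62 in the knockout, against 8.27, 8.34, 8.23 and 8.10 in the wild type, with replicate 4 highest and replicate 2 lowest of the knockouts as in Fez1. For Mapt they were Ccdc12 with 0.94, Dhrs4, a carbonyl reductase, with 0.92, Tnnc2, the fast troponin C, with 0.91, Pdlim1 with 0.91 and Myl12a, a myosin light chain of non-muscle cells, with 0.89. The lists had no gene in common. With 1 array left out at a time, r of these genes stayed between 0.84 and 0.98. They were picked for the highest r among 4698 tested probes on these same arrays, so that range is only a description.

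After the genotype means were subtracted, other genes came first. For Fez1 they were Pgls, an enzyme of the pentose phosphate pathway, with 0.98, Ostf1 with 0.93, H2bc22, a histone, with 0.90, Tmem106b, a lysosomal membrane protein, with 0.90, and Riok3 with 0.90. Pgls itself stood at 10.09, 9.77, 10.22 and 10.49 in the knockout, against 9.93, 9.95, 9.57 and 9.87 in the wild type. It followed the order of Fez1 within each genotype, while its genotypes overlapped. For Mapt they were Cnst with 0.93, Itfg2 with 0.93, Ptpn11, a tyrosine phosphatase, with 0.92, Urgcp with 0.90 and Car14, a carbonic anhydrase, with 0.90. These too were picked as the highest on the same arrays. With 1 array left out r fell as low as 0.81, for Riok3.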

How the data were processed

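Per the labels' protocols, RNA was column-purified and amplified to biotinylated cRNA for hybridisation to Illumina arrays. The authors deposited log2 intensities in which all 8 arrays hold the same sorted values, so they were quantile normalized, and a shift of all transcripts cannot be seen. Base 2 was judged from their range. The background correction, any earlier probe filter and a genome build are not stated in the labels or headers. A second table of 8 columns was not used, since its column names match no sample label. Of 9232 probes, 8403 had 1 gene symbol in the platform annotation, 3 several and 826 none.

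Differences, knockout minus wild type, came from limma 3.58.1 (R 4.3.3; a genotype term and untrended eBayes, two-sided p adjusted by Benjamini-Hochberg over all 4698 tested probes); the median standard error was 0.21. The fit was tested on simulated data. Tub and Kif probes were taken by symbol. Named were probes of smallest p in each family and list, Tubb3, and the 5 most alike genes. Named after their values were seen were Acta1, Map1b, Map1s, Map4, Ckap5, Cdk5, Ppp2ca, Fez2, Prkcz, Tubg2, Kif12, Tubd1, Uchl1, Vamp1, Ncam1, Elavl4, Cnp, Mbp, Lyz2, Adgre1, Tek, Gadd45a and Rapsn. The members and lists were chosen with earlier results of these data known. Same-numbered samples deviated with r of -0.28, -0.15, 0.24 and -0.34 and were not used as pairs. Alternatives covered the filter, moderation, array weights, replicate block, cyclic loess and each array left out.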

Additional observations from a re-analysis of the deposited data

Results flagged for a closer look

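A sample far from the other 3 of its genotype was found in 4 of 74 groups of 4 arrays checked, where chance gives about 5%, and in none of the Mapt or Fez1 groups. Kif1b probe 1240494 was 8.33 in knockout replicate 1, with the other knockouts at 8.68 to 8.72. Kif3c probe 2360162 was 8.43 in knockout replicate 3, with the others at 8.21 to 8.23. Ppp2cb was 9.99 in knockout replicate 2, with the others at 9.35 to 9.41. Klc1 probe 6250095 was 7.40 in wild-type replicate 2, with the others at 6.55 to 6.63. The check covered Mapt, Fez1, the Tub and Kif probes chosen by rule and the probes of smallest p in each list. It left out Uchl1, among others, where knockout replicate 2 was 4.94 and the other knockouts were 8.64 to 8.94.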

How the results depend on the processing

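Over 15 alternatives, of which the removal of both the filter and knockout replicate 2 was added after the data were seen, all 4 Mapt and Fez1 probes stayed higher in the knockout. Mapt differed by 0.80 to 1.00 and 0.49 to 0.71, and Fez1 by 1.08 to 1.50 and 1.01 to 1.33. The count of all probes past the threshold was 0, but 4 with array weights and 56 in the added alternative, and from 0 to 36 when each array was left out, with 36 without knockout replicate 2. No Tub or Kif probe passed in any alternative (0). With a replicate block the count was 0 for all probes; the numbers do not pair the samples, and knockout replicate 3 deviated most like wild-type replicate 4 (r 0.39). Chrna1 probe 3610364, at a limma adjusted p of 0.465 with all arrays, passed without knockout replicate 2 (difference 2.90, adjusted p 8.2e-04). It also passed in the added alternative (limma adjusted p 9.4e-04), as did Map1b (difference 2.54, adjusted p 0.007). Ncam1, Uchl1, Prkcz and Chrnb1 passed there too (adjusted p 0.003, 0.0125, 0.043 and 0.035). Knockout replicate 2 was the lowest knockout in each of these genes, and its low values had been seen. Passing without it is therefore not read as a result. Of 30 context probes, 6 changed sign. With array weights Tuba4a was -0.22, Kif3c -0.11 and Kifap3 -0.047. In the added alternative Kif1b probe 4570270 was -0.041. Leaving out single arrays gave -0.35 to 0.49 for Tuba4a, -0.10 to 0.21 for Kif3c, -0.092 to 0.22 and -0.15 to 0.23 for Kif1b probes 2370139 and 4570270, -0.072 to 0.14 for Kifap3 and -0.0014 to 0.27 for Spast probe 4670338. They also moved Kif1b probe 1240494 (-0.36 to -0.038), Tubb5 (-0.34 to -0.14), Tuba8 (-0.21 to -0.039), Tubg1 (-0.16 to -0.010), Vamp2 (-0.29 to -0.049), Spast probe 4070471 (0.038 to 0.26), Ulk1 (-1.12 to -0.44) and Cd74 (0.75 to 1.41) by over 1.5 times. The causes were not tested. The number of arrays limits the precision.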
